A study of Homo sapiens with 12 samples.

Results

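Interferon signalling genes and interferon-stimulated genes were examined in HD-MB03, a MYC-amplified cell line established from a group 3 medulloblastoma, an aggressive childhood tumour of the cerebellum. The genes were chosen by name, through the array's annotation symbols. Of 42 listed genes, 41 had a probe set that names a single gene, out of 19775 such genes on the array, and STAT2 was not analysed here. RNA was measured on 12 Affymetrix arrays in 4 groups of 3 biological replicates: cells given 1 µM entinostat for 24 h, solvent (DMSO) cells at 24 h, cells given 1 µM entinostat for 48 h, and solvent (DMSO) cells at 48 h. Entinostat inhibits class I histone deacetylases, enzymes that remove acetyl groups from histones. All groups are the same line, and no interferon treatment is listed for any group, so the data describe basal expression of these genes and its response to the inhibitor in a single tumour line.

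Type I interferons bind a receptor made of IFNAR1 and IFNAR2, whose associated kinases JAK1 and TYK2 phosphorylate STAT proteins. Activated STAT proteins and IRF9 form the complex ISGF3, which binds interferon-stimulated response elements in promoters and switches on a large set of antiviral genes. Many of these genes also carry a low basal expression in cells that see no interferon, and some of their products, among them USP18, restrain the pathway.

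The response elements that this pathway acts on share the letters GAAANNGAAA, read on either strand. These letters were searched in the RefSeq promoter windows (GRCh38.p14, 250 bases before to 50 after each start), which held 29 of the 41 measured genes. They occurred in 20 of these 29 genes (69.0%), and in 4.38% of all genes and 3.57% of all windows in the table. The stretches below are shown because the same letters stand before genes that rose, a gene that fell and a gene that did not pass the test. Each is written 5′ to 3′ on the gene's strand, and the capitals mark the fixed letters of each match. In ISG15 (chr1:1013372-1013411, plus strand) and BST2 (chr19:17405733-17405772, minus strand) 2 matches overlap, IFI6 (chr1:27672264-27672360, minus strand) has 3 and IFIT1 (chr10:89392495-89392541, plus strand) has 2 on the opposite strand. In EIF2AK2 (chr2:37156977-37157006, minus strand) the match crosses the start. HERC5 (chr4:88456982-88457066, plus strand), another pathway gene, has 3 on the opposite strand.
ISG15: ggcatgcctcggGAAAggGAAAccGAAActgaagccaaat
IFI6: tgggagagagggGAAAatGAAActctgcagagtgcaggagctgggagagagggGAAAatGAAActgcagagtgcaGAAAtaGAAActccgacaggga
BST2: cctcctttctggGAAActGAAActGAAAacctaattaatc
EIF2AK2: gggaaggcggagtccaagggGAAAacGAAA
IFIT1: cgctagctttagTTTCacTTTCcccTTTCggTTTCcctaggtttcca
HERC5: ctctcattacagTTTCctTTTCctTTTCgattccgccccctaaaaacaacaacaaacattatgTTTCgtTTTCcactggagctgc

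Entinostat did not move the interferon genes in a single direction. At 24 h 11 of the 41 genes were higher in entinostat cells and 3 were lower (limma, Benjamini-Hochberg adjusted p under 0.05 over all probe sets), while 18.2% of all genes were called higher and 15.0% lower. At 48 h 9 were higher and 3 lower, while 17.3% of all genes were called higher and 16.6% lower. As shares of the 41 genes, the rises were 26.8% at 24 h and 22.0% at 48 h, and the falls 7.32% at each time. In both directions together 34.1% of the interferon genes passed at 24 h and 29.3% at 48 h, against 33.2% and 34.0% of all genes. The median log2 fold change of the 41 genes was 0.02 at 24 h, where all genes had -0.02, and -0.00 at 48 h, where all genes again had -0.02. The total share called and the median thus lay near those of the whole array, and only 3 genes, USP18, IFI6 and JAK1, had an absolute log2 fold change of 1 or more at either time.

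Most of the genes were dim. Values are linear intensities, a normalized brightness of a probe set, with array medians of 80.6 to 81.8 and a lowest value of 36.7. The methods name GCRMA, a normalization that removes background, and log2 values, whereas the table is linear, so how much background it still holds is not known. In 28 of the 41 genes every group mean was under 128, and 9 of these 28 passed at either time. Of the 13 brighter genes 7 passed. The shares over all dim and all bright genes of the array are not given here, so these counts are not read as a difference between dim and bright interferon genes. The table has no detection call, so a value near the array median may hold little but background, and folds of dim genes are compressed by it. Intensities of different genes are not compared, since probe sets differ in brightness for reasons other than RNA.

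**Figure D1:**
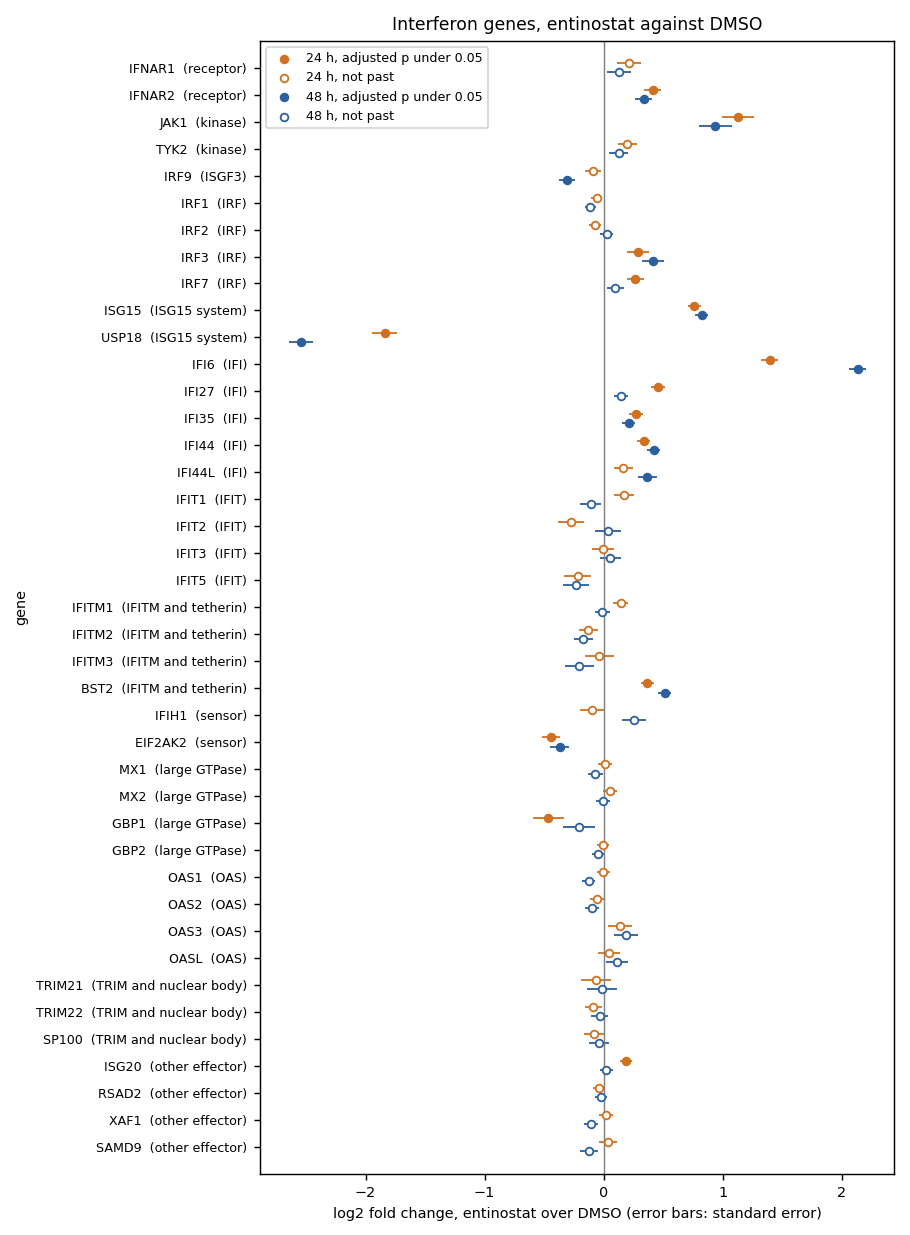
Log2 fold change of entinostat over DMSO (x axis) for the 41 interferon genes (y axis, grouped by role), at 24 h in orange and 48 h in blue, with standard errors; filled points passed an adjusted p of 0.05. IFI6 lies farthest right (1.39 at 24 h and 2.13 at 48 h) and USP18 farthest left (-1.84 at 24 h and -2.54 at 48 h), and most points lie near 0.

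USP18 and IFI6 changed most, in opposite directions. USP18 is the protease that strips ISG15 from proteins and also binds IFNAR2 to dampen signalling. Its intensity was 166, 161 and 194 in entinostat cells at 24 h, against 575, 677 and 612 in DMSO cells. At 48 h it was 135, 158 and 159.6 in entinostat cells, against 765, 916 and 956 in DMSO cells. The groups were far apart at both times, with USP18 bright in every DMSO array. The log2 fold change was -1.84 (SE 0.105) at 24 h and -2.54 (SE 0.105) at 48 h, a level 3.58-fold lower and 5.82-fold lower in entinostat cells (limma, adjusted p 1.07e-07 and 8.29e-09). In such bulk RNA fewer cells expressing a gene and less RNA per cell cannot be told apart.

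IFI6, a small membrane protein known to delay apoptosis and to hinder some viruses, went the other way. Its intensity was 298, 285 and 271 in entinostat cells at 24 h, against 108, 111 and 106 in DMSO cells. At 48 h it was 443, 485 and 408 in entinostat cells, against 106, 97.2 and 101 in DMSO cells. All entinostat arrays lay above all DMSO arrays, and those of 48 h above those of 24 h. This gave a log2 fold change of 1.39 (SE 0.0676) at 24 h and 2.13 (SE 0.0676) at 48 h (2.62-fold and 4.38-fold, limma, adjusted p 3.27e-08 and 1.66e-09).

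These 2 genes were also the only ones of the 41 whose response differed between the times in a test of the interaction of treatment and time, which 1.92% of all genes passed. The 48 h minus 24 h difference of the log2 fold changes was 0.74 (SE 0.0955) for IFI6 and -0.70 (SE 0.148) for USP18 (limma, adjusted p 0.00516 and 0.0443). For USP18 the call was lost (adjusted p 0.0525 to 0.106) when any array other than replicate 1 of DMSO at 48 h was left out. Its DMSO level was 879 ± 101 at 48 h and 621 ± 51.6 at 24 h (SD, n = 3 each), a log2 difference of 0.50 (SE 0.105) that did not pass (limma, adjusted p 0.0685). In entinostat cells USP18 was 151 ± 14.0 at 48 h and 174 ± 17.9 at 24 h (SD, n = 3 each). That log2 difference was -0.21 (SE 0.105) and did not pass either (limma, adjusted p 0.322).

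ISG15, the ubiquitin-like protein that interferon induces and that USP18 removes again, rose at both times. Its intensity was 130.4, 141 and 132 in entinostat cells at 24 h, against 78.2, 79.7 and 79.6 in DMSO cells. At 48 h it was 134, 146 and 141 in entinostat cells, against 81.1, 75.4 and 81.3 in DMSO cells. The groups were apart by many times their spread, although DMSO values lay at the array median. The only ISG15 probe set is of a kind (ending in _s_at) marked for possible cross-hybridization, so no other probe set could check it. As a log2 fold change this was 0.76 (SE 0.0546) at 24 h and 0.82 (SE 0.0546) at 48 h (limma, adjusted p 6.71e-07 and 3.12e-07). With 30 subtracted from every intensity, as a trial of the background, ISG15 had 1.08 at 24 h and 1.16 at 48 h.

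The enzymes that attach ISG15 were taken from a wider list of interferon pathway genes, of which 94 of 104 were measured. UBE2L6, the conjugating enzyme, had 274, 282 and 275 in entinostat cells at 24 h, against 112, 73.3 and 66.2 in DMSO cells, and 365, 319 and 335 in entinostat cells at 48 h, against 107, 96.0 and 84.0 in DMSO cells. HERC5, the main human ligase for ISG15, had 252, 267 and 253 in entinostat cells at 24 h, against 66.1, 83.3 and 76.6 in DMSO cells, and 181, 204 and 184 in entinostat cells at 48 h, against 78.9, 87.2 and 67.4 in DMSO cells. Both genes, and HERC6 at 24 h, were named for a large change with no overlap between arrays, so that separation was set by the choice. The log2 fold change of UBE2L6 was 1.76 (SE 0.155) at 24 h and 1.83 (SE 0.155) at 48 h, and that of HERC5 1.78 (SE 0.0995) and 1.29 (SE 0.0995), all past the threshold (limma, largest adjusted p 3.54e-06). HERC6, a relative of HERC5, rose too, with 1.02 (SE 0.110) at 24 h and 0.62 (SE 0.110) at 48 h (limma, adjusted p 2.00e-05 and 0.000967). TRIM25, which can also attach ISG15, did not pass, with -0.16 at 24 h and -0.14 at 48 h (limma, adjusted p 0.190 and 0.294), and UBA7, the activating enzyme, was not analysed here; both were added after the values were seen. ISG15, UBE2L6 and HERC5 were thus higher and USP18, which removes ISG15, was lower, while TRIM25 passed in neither direction.

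**Figure D2:**
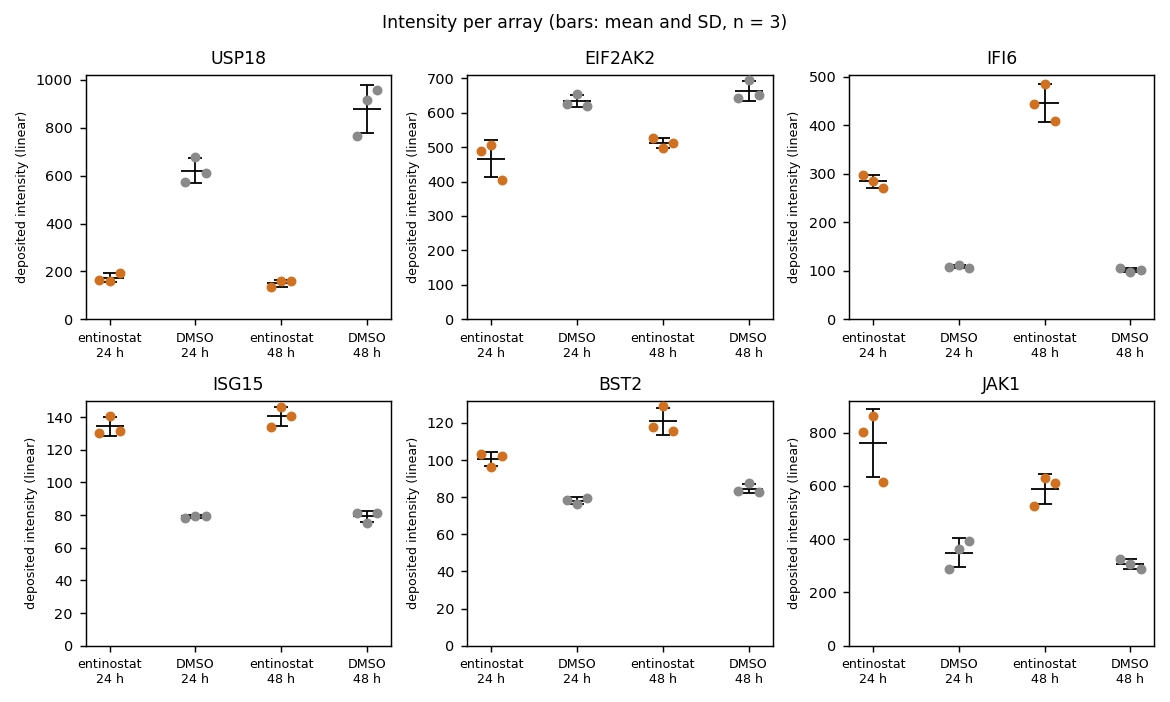
Intensity of 6 interferon genes on each array (points; linear y axis from 0), with the mean and SD of each group of 3, entinostat in orange and DMSO in grey. USP18 and EIF2AK2 were lower and IFI6, ISG15, BST2 and JAK1 higher in entinostat cells at both times, with no overlap between entinostat and DMSO arrays of the same time. All 6 genes shown had passed at both times, so their separation is not a separate result.

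Of the receptor and its kinases, JAK1 rose at both times. JAK1 had 803, 863 and 616 in entinostat cells at 24 h, against 288, 363 and 394 in DMSO cells. At 48 h it had 523, 631 and 609.5 in entinostat cells, against 325, 307 and 287 in DMSO cells. The lowest entinostat array at either time lay above the highest DMSO array. The log2 fold change was 1.12 (SE 0.135) at 24 h and 0.94 (SE 0.135) at 48 h (limma, adjusted p 4.77e-05 and 0.000187). The other 2 bright JAK1 probe sets also rose, with 0.95 and 0.66 at 24 h and 0.80 and 0.58 at 48 h. Of all 5 JAK1 probe sets 3 passed and 2 did not at each time, and the lowest log2 fold change was -0.00 at 24 h and 0.02 at 48 h. TYK2, the partner kinase on IFNAR1, did not pass, with 0.20 (SE 0.0795) at 24 h and 0.13 (SE 0.0795) at 48 h (limma, adjusted p 0.0942 and 0.308).

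IFNAR2, the subunit that JAK1 and USP18 bind, had 433, 444 and 412 in entinostat cells at 24 h, against 325, 340.4 and 306 in DMSO cells, and 402, 352 and 419 in entinostat cells at 48 h, against 316, 314 and 297 in DMSO cells. Its log2 fold change was 0.41 (SE 0.0698) at 24 h and 0.34 (SE 0.0698) at 48 h (limma, adjusted p 0.000734 and 0.00290). These arrays did not overlap, but this probe set is of a kind (ending in _x_at) that can cross-hybridize, and neither of the other 2 IFNAR2 probe sets passed at either time. IFNAR1, the other subunit, did not pass on its brightest probe set (0.21 at 24 h and 0.13 at 48 h), while 2 of its 3 dimmer probe sets passed at 48 h with 0.39 and 0.29 (limma, adjusted p 0.0129 and 0.0407).

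Among the transcription factors, IRF9, the DNA-binding subunit of ISGF3, fell at 48 h. IRF9 had 92.1, 100.4 and 99.4 in entinostat cells at 48 h, against 124, 115 and 122 in DMSO cells. The groups did not overlap at 48 h, whereas at 24 h they did, with 108, 108 and 116 in entinostat cells and 119, 109 and 127 in DMSO cells. Its log2 fold change was -0.09 (SE 0.0650) at 24 h and -0.31 (SE 0.0650) at 48 h (limma, adjusted p 0.372 and 0.00321). The difference between the times did not pass (adjusted p 0.344).

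IRF3, which switches on interferon genes after virus sensing, was higher at both times. IRF3 had 188, 202 and 231 in entinostat cells at 24 h, against 168, 164 and 175 in DMSO cells, and 211, 209.7 and 261 in entinostat cells at 48 h, against 163, 179 and 168 in DMSO cells. The groups did not overlap, and replicate 3 was the highest entinostat array at each time. In log2 terms the change was 0.29 (SE 0.0920) at 24 h and 0.41 (SE 0.0920) at 48 h (limma, adjusted p 0.0367 and 0.00461). The 24 h call was lost in 5 of 12 refits without an array, for example 0.21 with an adjusted p of 0.148 without replicate 3 of entinostat at 24 h.

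IRF7, the factor that amplifies interferon production, had 0.26 (SE 0.0711) at 24 h and 0.10 (SE 0.0711) at 48 h (limma, adjusted p 0.0152 and 0.389), and the 24 h call was lost in 4 of 12 refits without an array (adjusted p up to 0.0688, without replicate 1 of DMSO at 24 h). It was dim throughout, with 60.6 to 83.8 over all arrays. IRF1 and IRF2 did not pass at either time, with log2 fold changes of -0.06 and -0.07 at 24 h and -0.11 and 0.02 at 48 h.

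The 5 of the 41 genes that were grouped as IFI, named for interferon induction, all had positive log2 fold changes at both times. At each time 4 of them passed, while 18.2% of all genes were called higher at 24 h and 17.3% at 48 h. On their brightest probe sets no IFIT or OAS gene passed at either time. IFI27, a membrane protein of mitochondria, had 101, 95.0 and 102 in entinostat cells at 24 h, against 67.6, 76.3 and 72.9 in DMSO cells. Its log2 fold change was 0.46 (SE 0.0607) at 24 h and 0.14 (SE 0.0607) at 48 h (limma, adjusted p 0.000110 and 0.110). IFI44, a cytoplasmic protein of unclear mechanism, had 71.8, 77.5 and 70.3 in entinostat cells at 24 h, against 58.4, 57.6 and 57.7 in DMSO cells. Its log2 fold change was 0.34 (SE 0.0538) at 24 h and 0.42 (SE 0.0538) at 48 h (limma, adjusted p 0.000458 and 7.18e-05). The second IFI44 probe set, with group means of 46.9 to 49.6, had 0.08 at 24 h and -0.00 at 48 h and did not pass.

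IFI44L, the neighbour of IFI44 on chromosome 1 and its relative in sequence, had 73.7, 64.7 and 74.4 in entinostat cells at 48 h, against 57.0, 57.3 and 50.7 in DMSO cells. Its log2 fold change was 0.16 (SE 0.0795) at 24 h and 0.37 (SE 0.0795) at 48 h (limma, adjusted p 0.171 and 0.00387). IFI35 had 0.27 (SE 0.0584) at 24 h and 0.21 (SE 0.0584) at 48 h (limma, adjusted p 0.00368 and 0.0183). Of these 5 genes IFI6 was the one with a group mean over 128, and the other 4 lay between 49.0 and 108 on every array.

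BST2, or tetherin, which holds budding virus at the cell surface, had 104, 96.4 and 102 in entinostat cells at 24 h, against 78.4, 76.2 and 79.7 in DMSO cells. At 48 h BST2 had 118, 129 and 116 in entinostat cells, against 83.4, 87.5 and 83.0 in DMSO cells. Entinostat and DMSO arrays were apart at each time. The log2 fold change was 0.37 (SE 0.0562) at 24 h and 0.51 (SE 0.0562) at 48 h (limma, adjusted p 0.000335 and 1.99e-05). ISG20, an exonuclease that degrades single-stranded RNA, was 1.14-fold higher at 24 h, with a log2 fold change of 0.19 (SE 0.0531, limma, adjusted p 0.0210), and had 0.02 (SE 0.0531) at 48 h (adjusted p 0.834). The 24 h call of ISG20 was lost in 3 of 12 refits without an array (adjusted p up to 0.0851, without replicate 3 of entinostat at 24 h), and its second probe set did not pass at 24 h (0.14, adjusted p 0.523).

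EIF2AK2, or PKR, the kinase that halts translation when it senses double-stranded RNA, fell at both times. EIF2AK2 had 488, 507 and 405 in entinostat cells at 24 h, against 624, 653 and 621 in DMSO cells. At 48 h it had 526, 496 and 513 in entinostat cells, against 641, 696 and 649.6 in DMSO cells. All entinostat arrays lay below all DMSO arrays. On the log2 scale the difference was -0.45 (SE 0.0767) at 24 h and -0.37 (SE 0.0767) at 48 h (limma, adjusted p 0.000804 and 0.00280). A second bright probe set of EIF2AK2, of a kind not marked for cross-hybridization, had -0.70 (SE 0.0565) at 24 h and -0.72 (SE 0.0565) at 48 h (limma, adjusted p 1.74e-06 and 1.27e-06).

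GBP1, a large GTPase best known as a target of interferon gamma, had 61.9, 49.0 and 51.5 in entinostat cells at 24 h, against 62.1, 86.8 and 76.1 in DMSO cells. The groups nearly touched, and the DMSO arrays were spread widely. The fitted log2 fold change was -0.46 (SE 0.133) at 24 h and -0.21 (SE 0.133) at 48 h (limma, adjusted p 0.0214 and 0.320). None of the other 3 GBP1 probe sets passed at either time. The call was lost in 4 of 12 refits without an array, for example -0.35 with an adjusted p of 0.0897 without replicate 2 of DMSO at 24 h.

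**Figure D3:**
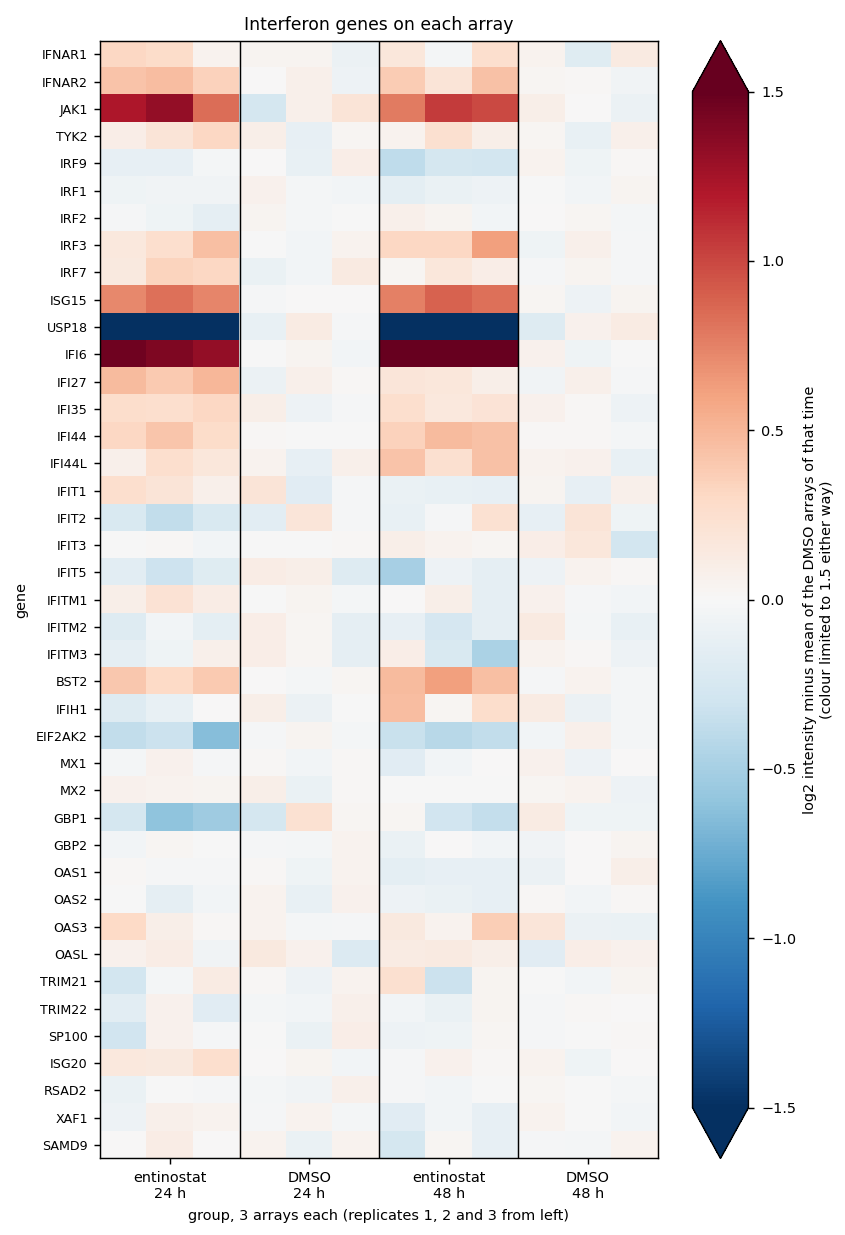
Log2 intensity of each interferon gene (rows) on each of the 12 arrays (columns, entinostat left of DMSO at each time), minus the mean of the DMSO arrays of that time; the colour scale ends at 1.5 either way. The strong colours are USP18, IFI6, JAK1 and ISG15, and the rows from IFIT1 to IFIT5 and from MX1 to SAMD9, other than GBP1 and ISG20, are paler in all groups.

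The other antiviral effectors did not pass the test at either time on their brightest probe sets. They include IFIT1, IFIT2, IFIT3 and IFIT5, which bind foreign RNA, MX1 and MX2, GTPases that block viral nucleocapsids, OAS1, OAS2, OAS3 and OASL, of which the first 3 make the second messenger that activates RNase L, and RSAD2, or viperin. They also include IFITM1, IFITM2 and IFITM3, membrane proteins that block viral fusion, the RNA sensor IFIH1, the ubiquitin ligases TRIM21 and TRIM22, the nuclear body protein SP100, the GTPase GBP2, XAF1 and SAMD9. Over all 25 genes that passed at neither time, the log2 fold changes ran between -0.28 and 0.25, with standard errors of 0.0478 to 0.125 and a smallest adjusted p of 0.0903. A dimmer IFIT2 probe set passed at 24 h with -0.22 (limma, adjusted p 0.0225). The OAS genes had values of 58.4 to 95.9 on all arrays and log2 fold changes of -0.13 to 0.19.

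A small change could be missed in these genes. On simulated data of the same size 35 of 50 changes of 0.5 and 6 of 50 changes of 0.25 (log2) were recovered at 24 h, and 31 and 5 of 50 at 48 h. Only 50 probe sets of each size, among 54611, were changed there. In the real data 33.2% of all genes were called at 24 h and 34.0% at 48 h. The adjusted threshold was therefore stricter in the simulation, and its rates need not hold for these genes. ISG20, for example, passed at 24 h with 0.19.

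Among these genes IFIT5, IFITM2 and IFITM3 were well above the array median. IFIT5 had 448, 403 and 442 in entinostat cells at 24 h, against 541, 533 and 438 in DMSO cells, and 362, 489 and 469 in entinostat cells at 48 h, against 488, 533 and 519 in DMSO cells. The arrays overlapped, and the log2 fold change was -0.22 (SE 0.111) at 24 h and -0.23 (SE 0.111) at 48 h (limma, adjusted p 0.190 and 0.157). IFITM3 averaged 1186 ± 89.1 in entinostat cells and 1217 ± 97.4 in DMSO cells at 24 h, and 838 ± 170.4 in entinostat cells and 953 ± 45.6 in DMSO cells at 48 h (SD, n = 3 each). IFITM2 averaged 417 ± 22.2 in entinostat cells and 457 ± 38.1 in DMSO cells at 24 h, and 321 ± 16.2 in entinostat cells and 362 ± 31.8 in DMSO cells at 48 h (SD, n = 3 each).

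IFITM2 and IFITM3 differed more between the times than between the treatments. Within entinostat cells the level at 48 h was lower than at 24 h, by a log2 difference of -0.38 (SE 0.0795) for IFITM2 and -0.52 (SE 0.120) for IFITM3 (limma, adjusted p 0.0139 and 0.0217). Within DMSO cells the differences were -0.33 (SE 0.0795) and -0.35 (SE 0.120) and did not pass (adjusted p 0.101 and 0.269). The interaction did not pass in either gene (adjusted p 0.934 and 0.776). The IFITM genes are close relatives in sequence and neighbours on chromosome 11, and the probe sets used for IFITM2 and IFITM3 are marked for cross-hybridization, so their signals may be shared.

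In entinostat cells, 7 of the 41 genes differed between 48 h and 24 h, while 10.3% of all genes did. IFI6 (0.64) and BST2 (0.26) were higher at 48 h, and IFI27 (-0.22), IRF7 (-0.28), IFIT1 (-0.40), IFITM2 and IFITM3 were lower. In DMSO cells 0 of the 41 genes passed by limma (4 at an unadjusted p under 0.05, among them USP18), while 0.460% of all genes passed.

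No interferon ligand passed the test. The 18 interferon ligand genes with a probe set of their own, IFNB1 and IFNG among them, had values of 39.0 to 87.3 on all arrays. By limma 0 of them passed at either time, with 2 at 24 h and 1 at 48 h under an unadjusted p of 0.05. IFNB1 had 54.8, 60.3 and 55.6 in entinostat cells at 24 h, against 53.5, 55.2 and 54.9 in DMSO cells. At this brightness a low level of ligand RNA cannot be told from background.

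Among the 94 other pathway genes the test called 15 rises and 13 falls at 24 h, and 18 rises and 15 falls at 48 h. In both directions together 29.8% of them passed at 24 h and 35.1% at 48 h, near the 33.2% and 34.0% of all genes. The genes described next were mostly taken from the largest changes without overlap between arrays, and for those the size and separation describe the choice. STING1, CGAS, JAK2, IFNGR1, IFNGR2 and RIGI were instead named whatever their values. Besides the conjugating enzymes, STAT3, a STAT used by many cytokines, rose most. STAT3 had 514, 615 and 529.7 in entinostat cells at 24 h, against 189, 237 and 223 in DMSO cells, and 567, 697 and 617 in entinostat cells at 48 h, against 219.7, 256 and 246 in DMSO cells. The log2 fold change was 1.36 (SE 0.105) at 24 h and 1.38 (SE 0.105) at 48 h (limma, adjusted p 1.20e-06 and 9.13e-07).

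SAMHD1, which depletes deoxynucleotides and so restricts viruses, had a log2 fold change of 0.90 (SE 0.0770) at 24 h and 0.99 (SE 0.0770) at 48 h (limma, adjusted p 2.80e-06 and 1.17e-06). IFI16, a nuclear DNA sensor, had 0.94 (SE 0.288) at 24 h and 1.28 (SE 0.288) at 48 h (limma, adjusted p 0.0300 and 0.00479). The 24 h arrays of IFI16 overlapped, with 249.7, 264 and 147 in entinostat cells against 97.5, 189.7 and 74.1 in DMSO cells, and that call was lost in 4 of 12 refits without an array (adjusted p up to 0.128, without replicate 3 of DMSO at 24 h). STING1, the adaptor of DNA sensing, rose by 0.40 (SE 0.0704) at 24 h and 0.44 (SE 0.0704) at 48 h (limma, adjusted p 0.000922 and 0.000438). CGAS, the sensor that feeds it, did not pass, with -0.08 at 24 h and 0.03 at 48 h.

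CXCL11, a chemokine that interferon induces, fell most. CXCL11 had 90.8, 103 and 105 in entinostat cells at 24 h, against 212, 199.7 and 243 in DMSO cells, and 147, 125 and 135 in entinostat cells at 48 h, against 259.7, 266 and 265 in DMSO cells. The log2 fold change was -1.13 (SE 0.0836) at 24 h and -0.96 (SE 0.0836) at 48 h (limma, adjusted p 8.87e-07 and 2.87e-06).

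Several smaller falls passed at both times. PLSCR1, a scramblase that interferon induces, had -0.56 and -0.59, ZC3HAV1, which targets CG-rich viral RNA, -0.57 and -0.50, and DTX3L, a ubiquitin ligase, -0.70 and -0.53 at 24 h and 48 h. TRIM14 had -0.61 and -0.46, TRIM5, a retroviral restriction factor, -0.34 and -0.54, and MYD88, the adaptor of most toll-like receptors, -0.51 and -0.65. All of these passed (limma, largest adjusted p 0.00425), but the calls of PLSCR1 and TRIM14 rest on probe sets of the kind that can cross-hybridize. On their brightest probe sets not of that kind, both dim, the calls were lost, with -0.08 and -0.04 for PLSCR1 and -0.00 and -0.19 for TRIM14 at 24 h and 48 h.

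Of the remaining signalling genes JAK2, a kinase of the interferon gamma receptor, had -0.35 (SE 0.0595) at 24 h and -0.45 (SE 0.0595) at 48 h (limma, adjusted p 0.000682 and 8.57e-05), opposite in sign to JAK1. The receptor chains IFNGR1 (0.09 and -0.01) and IFNGR2 (-0.23 and -0.22) did not pass at either time. Without replicate 3 of entinostat at 48 h, IFNGR2 passed at 48 h with -0.35 (limma, adjusted p 0.00226) and at 24 h with -0.23 (adjusted p 0.0148). With a separate fit for each time it also passed at 24 h (limma, adjusted p 0.0270). RIGI, an RNA sensor, had -0.22 (SE 0.0781) at 24 h and -0.30 (SE 0.0781) at 48 h (limma, adjusted p 0.0631 and 0.0130), and the 48 h call was lost without replicate 1 of entinostat at 48 h (adjusted p 0.0576). RIGI passed at 24 h with quantile normalization (adjusted p 0.0395), with a mean log2 of at least 7 required (0.0374) and with adjustment over 1 probe set per gene (0.0485). In the interaction of treatment and time 2 of the 94 genes (2.13%, against 1.92% of all genes) passed, PARP12 (0.51) and SP110 (0.43), both named after their values were seen (limma, adjusted p 0.0187 and 0.0388).

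**Figure D4:**
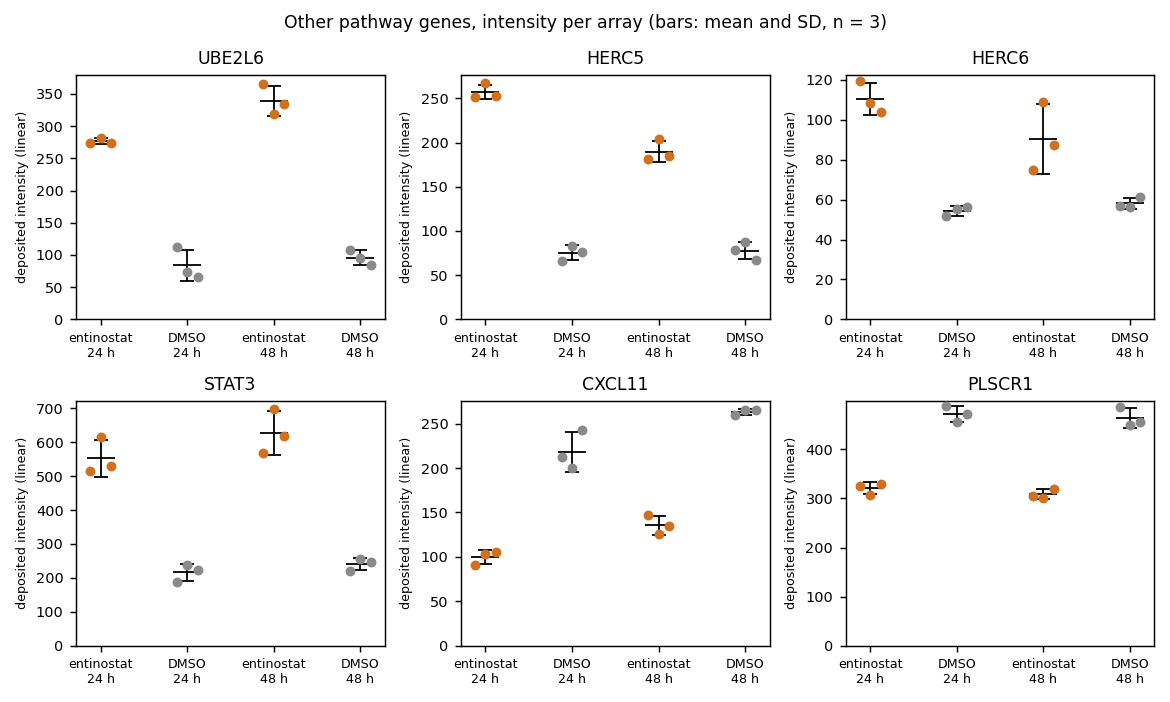
Intensity of 6 other interferon pathway genes on each array (points; linear y axis from 0), with the mean and SD of each group of 3, entinostat in orange and DMSO in grey. UBE2L6, HERC5, HERC6 and STAT3 were higher and CXCL11 and PLSCR1 lower in entinostat cells at both times; the genes were chosen for large changes without overlap between arrays.

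Read against the promoter letters, 7 of the 9 genes with a window that were higher at either time held GAAANNGAAA, as did 2 of the 3 that were lower and 11 of the 17 that passed at neither. JAK1 and IFI35, which rose, and IRF9, which fell, had none in the window, and EIF2AK2, which fell, had the match that crosses its start. USP18, IRF3, IRF7 and IFNAR2 had no window and are not in these counts. The letters stood in most genes of each kind, and a match describes the sequence, not a bound site. A second set of letters, TTCNNNGAA, typical of sites for STAT dimers, occurred in 8 of the 29 genes (27.6%) and in 9.38% of all genes.

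The arrays were alike in quality. Correlations of log2 values were 0.993 to 0.995 within groups and 0.967 to 0.994 between groups, and the log2 3′ minus 5′ signal of GAPDH, a check of RNA integrity, was -0.18 to -0.03 in all groups. Markers of fibroblasts (6 of 6), leukocytes (4 measured of 6) and endothelium (4 of 4) all had group means under 128. Of 9 group 3 medulloblastoma markers 6 had a group mean over 128, CRX only in DMSO cells at 48 h (138). The endothelial marker KDR rose by 1.04 at 24 h and 0.53 at 48 h on the log2 scale, and the tumour markers GABRA5 (-1.78 and -2.12) and IMPG2 (-2.02 and -1.52) fell at both times. Of the other markers OTX2 fell at 24 h (-0.22), CRX fell (-0.44) and MYC rose (0.17) at 48 h, and their part in the results above was not tested. The p-values reflect the spread between biological replicates of this single line.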

How the data were processed

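RNA of HD-MB03 cells was hybridized to 12 arrays. The deposited intensities had, according to the authors, been GCRMA-normalized, and the version is not given in the sources used here. The methods name a log2 transformation, but the deposited values are linear, so log2 was taken here. Of 54675 probe sets 62 controls were left out and 54613 tested. Each gene was represented by its brightest probe set with a single symbol, from GEO's platform annotation. A linear model with a term for each of the 4 groups was fitted over the 12 arrays (limma 3.58.1 under R 4.3.3), with Benjamini-Hochberg adjustment over all probe sets and a threshold of 0.05. Named were all listed genes and, of the other pathway genes, the 5 largest rises and the 5 largest falls at each time whose arrays did not overlap, with 9 fixed signalling genes, as far as measured. The genes and lists were chosen with earlier results of these data known. The fit was tested on simulated data, where 4 and 1 of 54411 unchanged probe sets were called at 24 h and 48 h. Few probe sets were changed there, so the adjusted threshold was stricter than in the real data. These counts therefore do not give the number of false calls in the real data. Alternatives were other backgrounds, normalizations, probe set choices, filters, thresholds, a replicate block, and leaving out each array. The number of arrays limits the precision.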

Additional observations from a re-analysis of the deposited data

Results flagged for a closer look

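Of the 41 interferon genes, 2 stood out because their response to entinostat differed between 48 h and 24 h in a test of that difference. For IFI6 the log2 fold change at 48 h exceeded that at 24 h by 0.74 (limma, adjusted p 0.00516), with all 3 entinostat arrays at 48 h above all 3 at 24 h. For USP18 the difference was -0.70 (limma, adjusted p 0.0443), with 135, 158 and 159.6 in entinostat arrays at 48 h and 166, 161 and 194 at 24 h, all lower at 48 h. In DMSO arrays USP18 had 765, 916 and 956 at 48 h and 575, 677 and 612 at 24 h, all higher at 48 h. Neither change over time passed (limma, adjusted p 0.322 in entinostat and 0.0685 in DMSO cells). The interaction call of USP18 was lost in 11 of 12 refits without an array.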

How the results depend on the processing

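Over the listed genes 2797 values were recomputed under the alternatives. Of these 2702 kept their direction and side of the threshold or moved little, 41 lost a call, 5 gained one, 48 moved by more than the spread between replicates or, for counts, by over 1.5 times, and 1 called value changed sign. Refits without an array made up 1441 of the 2702. Of the 48 that moved, 32 came from subtracting 30 from every intensity, where 89 stayed the same and 2 lost a call. The size of many fold changes thus depends on the background, which is not known. With a mean log2 of at least 7 required, 4 genes were higher at each time, since dim genes leave the test. When only probe sets not marked for cross-hybridization were used, 6 genes were higher at 24 h and 5 at 48 h. In that check 9 genes had no probe set left, among them ISG15, IFI35 and IRF7, whose calls it could not examine. IFI44 at 48 h then had -0.0015 (limma, adjusted p 0.991), and the calls of IFI44 at 24 h, IFNAR2, GBP1, TRIM14, PLSCR1 and RIGI were lost. With the probe set of strongest effect, IFIT2 fell at 24 h (-0.22, adjusted p 0.0225) and IFNAR1 rose at 48 h (0.39, adjusted p 0.0129). The interaction counted 1 gene, IFI6, with 30 subtracted from every intensity and 1 at a threshold of 0.01. With 30 subtracted, IRF3 at 24 h lost its call (adjusted p 0.0509), and with separate fits for each time, which give no interaction, IFI16 at 24 h did (adjusted p 0.104).

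Leaving out each array in turn gave 8 to 11 genes higher and 2 to 3 lower at 24 h, 8 to 10 higher and 3 to 4 lower at 48 h, and 1 to 2 in the interaction, where USP18 was lost in 11 of 12 refits. At 24 h ISG20 was lost without replicate 1 or 3 of DMSO or replicate 3 of entinostat (adjusted p up to 0.0851). IRF3 was lost without any DMSO replicate or replicate 2 or 3 of entinostat (up to 0.148), and IRF7 without replicate 1 or 2 of DMSO or 2 or 3 of entinostat (up to 0.0688). GBP1 was lost without replicate 2 or 3 of either group (up to 0.0897), and IFI16 without replicate 1 or 3 of DMSO or 1 or 2 of entinostat (up to 0.128). At 48 h IFI35 was lost without replicate 3 of DMSO or replicate 1 of entinostat (up to 0.0817). Calls were gained for IFIH1 at 48 h without replicate 2 of entinostat (0.36, adjusted p 0.0121), for IFITM3 at 48 h without replicate 1 of entinostat (-0.36, adjusted p 0.0182), for IFIT1 at 24 h without replicate 1 of DMSO (0.27, adjusted p 0.0317) and for RIGI at 24 h without replicate 2 of entinostat (-0.28, adjusted p 0.0254).

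Replicate numbers were not used as pairs in the main fit, and whether they mark pairs is not known. Deviations from the group means correlated at -0.06 to 0.20 in the 6 same-numbered pairs of entinostat and DMSO arrays of a time. The correlation was over 0.1 in 3 of them. Each entinostat array at 24 h correlated best with the DMSO array of its own number. At 48 h only replicate 1 of entinostat did. With the replicate number as a block the counts stayed at 11 higher and 3 lower at 24 h, 9 higher and 3 lower at 48 h and 2 in the interaction. Dim probe sets limit what can be seen of most of these genes.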

Other observations

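Probe sets that the annotation gives to several genes name none and stayed out of the counts, and 2 of them list an interferon gene examined here. The probe set listed for both IFITM2 and IFITM1 had a log2 fold change of 0.22 at 24 h (limma, adjusted p 0.00655), with all 3 entinostat arrays above all 3 DMSO arrays, and of -0.00 at 48 h. The probe set listed for both RNF31 and IRF9 had -0.14 at 24 h and -0.00 at 48 h and did not pass (limma, adjusted p 0.242 and 0.981).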
